A study of Mus musculus with 8 samples.

Results

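The genes described here are the organic ion and ATP-binding cassette (ABC) transporters of the mouse kidney, taken as every gene on the array whose symbol begins with Slc22a, Slco, Abca, Abcb, Abcc, Abce, Abcf or Abcg and goes on with a digit. The rule found 70 genes of 16593 on the array, among them 16 Slc22a, 11 Slco and 43 ABC genes, and it used no measured value. Of the 70 genes, 40 gave a signal distinguishable from background on at least 3 of the 8 arrays and were tested. Another 30 were not tested, and 21 of these were detected on 0 arrays.

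The study profiled whole kidneys at postnatal day 10 (P10) from 4 *Pkd1*V/V mice and from 4 wild-type mice of the same age. The *Pkd1*V/V mice are homozygous for a hypomorphic *Pkd1* allele, and their kidneys are labelled cystic. Illumina MouseRef-8 v2.0 BeadChip arrays were used, with 1 kidney per array. *Pkd1* encodes polycystin-1, and the allele is carried by the whole animal, so no Cre driver restricts it to a nephron segment. The labels give no sex, litter or treatment. Values are background-subtracted probe signals made comparable between arrays by quantile normalization, and fold changes are differences of log2(signal + 16), which understates changes of dim genes. The signals of *Pkd1* itself averaged 101 in mutants and 117 in wild-type kidneys (log2 fold change -0.20, SE 0.22, adjusted *P* = 0.545). Each probe has its own brightness, so levels are compared between kidneys and never between genes. Among the 8 kidneys 2 stood apart from their groups, wild-type replicate 4 by liver transcripts and mutant replicate 1 by macrophage transcripts, low proximal tubule transcripts and adrenal cortex transcripts. The counts are also given without them, as are some of the single values that depended on either kidney.

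Proximal tubule cells secrete drugs, toxins and waste in 2 steps. Carriers of the Slc22a and Slco families bring organic anions and cations into the cell, many of them across the basolateral side in exchange for other ions, and a few act on the brush border to recover urate or carnitine. Many ABC proteins hydrolyse ATP to push drugs and conjugates out of cells or to move lipids and sterols, some sit in mitochondria or lysosomes, and the Abce and Abcf proteins have no membrane domain and act at the ribosome.

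The transporters were mostly lower in *Pkd1*V/V kidneys, and 8 of the 10 largest falls were those of organic ion carriers of the Slc22a family. Of the 40 tested genes, 21 were lower, 2 were higher and 17 did not pass the threshold (limma, Benjamini-Hochberg adjusted *P* under 0.1 over 9833 genes). That is 52.5% lower and 5% higher, where 15.8% of all genes tested were lower, 16.8% higher and 32.6% called in either direction. The median log2 fold change was -0.47 among the transporters and 0.02 over all genes tested. In 19 genes every mutant kidney lay below every wild-type kidney, an order found for 13.8% of all genes, and in 2 genes every mutant lay above, as in 15.4% of all genes. For each of these genes the exact two-sided permutation test of 4 against 4 kidneys gives 0.0286, the smallest *P* it can reach.

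The detection filter lets through some genes only because the wild-type kidneys are bright (*Slc22a4* and *Abca4* were detected on 0 mutant arrays and *Abca8a* on 1), so the counts were taken with other filters too. With no filter, all 70 transporters entered, and 20 were lower and 2 higher, against 8.50% lower and 9.06% higher of 16593 genes. Among the 34 transporters detected on all 8 arrays, 17 were lower and 2 higher, against 16.4% and 17.8% of 8275 genes. Carriers that import and carriers that export were then told apart. The uptake carriers had 11 lower and 0 higher of 15 tested (median -1.20), with 23 on the array. The ABC exporters of drugs and organic ions had 2 lower and 0 higher of 4 tested (median -0.68), with 10 on the array. With no filter the same classes gave 11 lower of 23 uptake carriers and 2 lower of 10 exporters (*Abcc2* and *Abcc6*, with *Abcc10* lost). The difference between the classes was not tested. RNA came from whole kidneys, in which fewer cells of a type and less RNA per cell cannot be told apart.

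**Figure D1:**
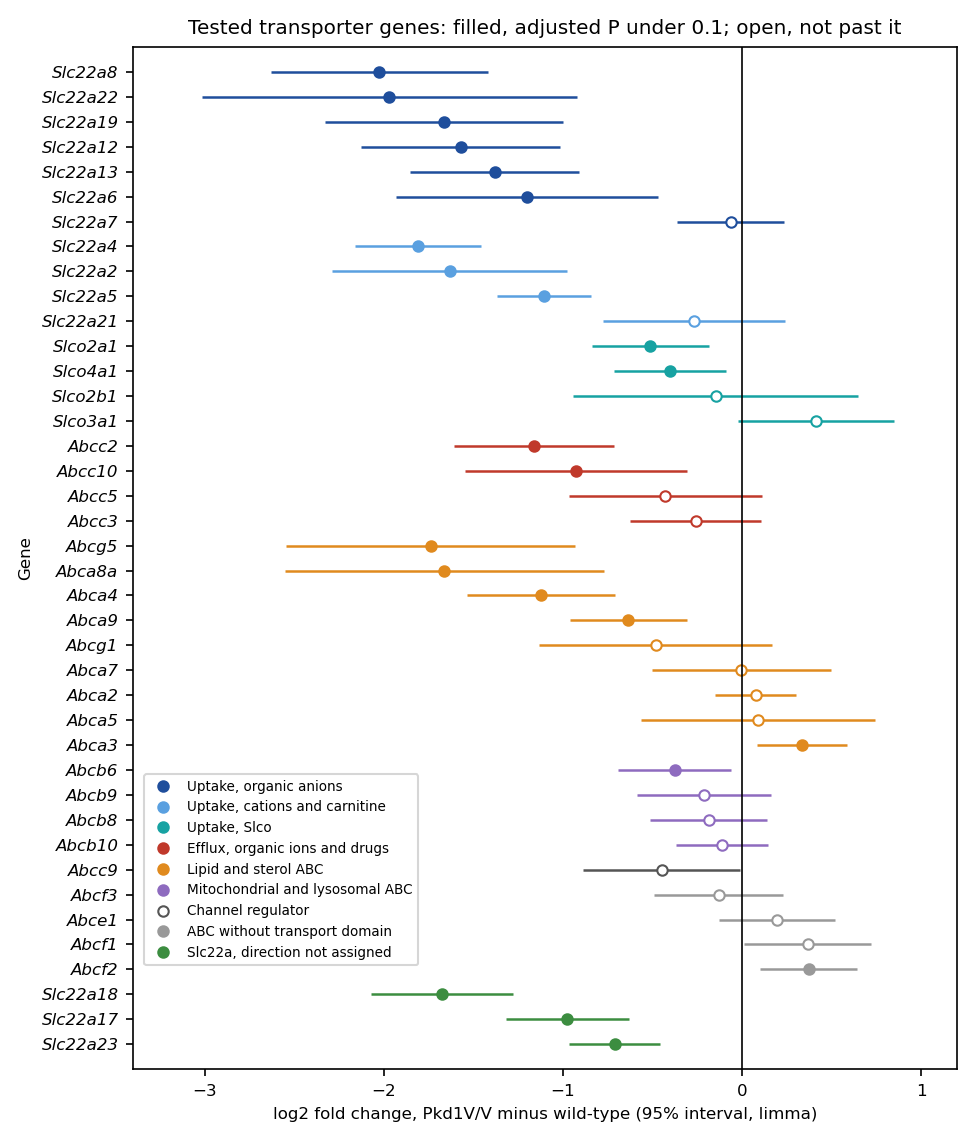
log2 fold change (*Pkd1*V/V minus wild-type, n = 4 each) of the 40 tested transporters, grouped by role, with 95% intervals from limma. Filled points passed the threshold and open points did not; 21 filled points lie left of 0 and 2 lie right of it.

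*Slc22a8* encodes OAT3, which takes organic anions from blood into proximal tubule cells in exchange for dicarboxylates. Its signal in wild-type replicates 1 to 4 was 299.6, 273, 311 and 462, and in *Pkd1*V/V replicates 1 to 4 it was 31.9, 90.7, 78.3 and 91.5. The groups did not overlap, and mutant replicate 1 was far below the other mutants. The means were 336 ± 85.3 (SD, n = 4) and 73.1 ± 28.1, a 4.60-fold higher signal in wild-type kidneys (log2 fold change -2.03, SE 0.27, adjusted *P* = 0.000772). Without mutant replicate 1 the change was -1.75, and without that kidney and wild-type replicate 4 it was -1.59. *Slc22a6* encodes OAT1, its close relative on the same membrane. Its wild-type signals were 1382, 1032, 900.4 and 531, and the mutant signals were 221, 376, 527 and 507. Wild-type replicate 4 lay just above the highest mutant, so the groups were separate by a narrow margin (log2 fold change -1.20, SE 0.33, adjusted *P* = 0.0244). Without wild-type replicate 4 the signal fell by 1.45 on the log2 scale, and without mutant replicate 1 it fell by 0.94.

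*Slc22a22* encodes OAT-PG, a carrier of prostaglandins in the mouse proximal tubule. Wild-type kidneys gave 805, 471, 744 and 311, and mutant kidneys gave 38.0, 145, 237 and 177. Both groups were widely spread but did not overlap (log2 fold change -1.97, SE 0.47, adjusted *P* = 0.0131), and without mutant replicate 1 the change was -1.50. *Slc22a19* (OAT5, a carrier of steroid sulfates in rodents) gave 877, 500.1, 967 and 985 in wild-type and 144, 225, 380.4 and 276 in mutant kidneys. Again no mutant reached the lowest wild-type kidney, which was replicate 2 (log2 fold change -1.67, SE 0.30, adjusted *P* = 0.00316). The change was -1.43 without mutant replicate 1, and -1.34 without that kidney and wild-type replicate 4.

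Urate and nicotinate carriers of the brush border fell as well. *Slc22a12* (URAT1, which reabsorbs urate) gave 456, 379, 276 and 278 in wild-type and 69.8, 92.5, 102 and 172 in mutant kidneys (log2 fold change -1.57, SE 0.25, adjusted *P* = 0.0018). *Slc22a13* (OAT10, a carrier of nicotinate and urate) gave 1046, 1372, 981 and 780.1 in wild-type and 270.2, 408, 402 and 484 in mutant kidneys (log2 fold change -1.38, SE 0.21, adjusted *P* = 0.00144). For both genes the groups were separate, and mutant replicate 1 was the lowest of the mutants. *Slc22a7*, which encodes OAT2, was dim in both groups, with 22.2 to 38.9 in wild-type and 25.7 to 32.2 in mutant kidneys. It was the single tested anion carrier of 7 that did not pass (log2 fold change -0.06, SE 0.13, adjusted *P* = 0.762, 95% interval -0.36 to 0.23). *Slc22a26* was detected on 0 arrays.

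The carriers of organic cations and carnitine showed the same direction, with 3 of 4 lower and a median of -1.37. *Slc22a2* encodes OCT2, the basolateral entry route of organic cations. Its signals were 502, 384, 345 and 253 in wild-type and 62.8, 79.3, 140.2 and 170.0 in mutant kidneys, with no overlap (log2 fold change -1.63, SE 0.29, adjusted *P* = 0.00334). *Slc22a5* encodes OCTN2, which recovers carnitine from the filtrate. It gave 2902, 2420.0, 2627 and 2958 in wild-type and 1136, 1210.4, 1336 and 1347 in mutant kidneys. Both groups were tight around 2727 ± 250.2 and 1257 ± 101 (SD, n = 4), so this fall had a small error (log2 fold change -1.11, SE 0.12, adjusted *P* = 0.000283). Of its 3 tested probes 1 dimmer probe gave -0.41 and did not pass (adjusted *P* = 0.275, over probes).

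*Slc22a4* encodes OCTN1, a carrier of ergothioneine. Its wild-type signals were 101, 77.0, 67.3 and 99.0, each detected, while the mutant signals of 8.43, 11.8, 13.1 and 18.9 were not above background on any array. The mutant level is therefore only a bound, and the wild-type mean was at least 4.0-fold higher than what the mutant arrays could have detected (adjusted *P* = 0.000132). The bound sets the mean log2 signal of wild-type kidneys against the lowest detected signal of each mutant array. *Slc22a21*, a carnitine carrier of the mouse, gave 40.6 to 85.6 in wild-type and 31.4 to 58.1 in mutant kidneys, which overlapped (log2 fold change -0.27, SE 0.23, adjusted *P* = 0.429, and -0.10 without wild-type replicate 4).

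**Figure D2:**
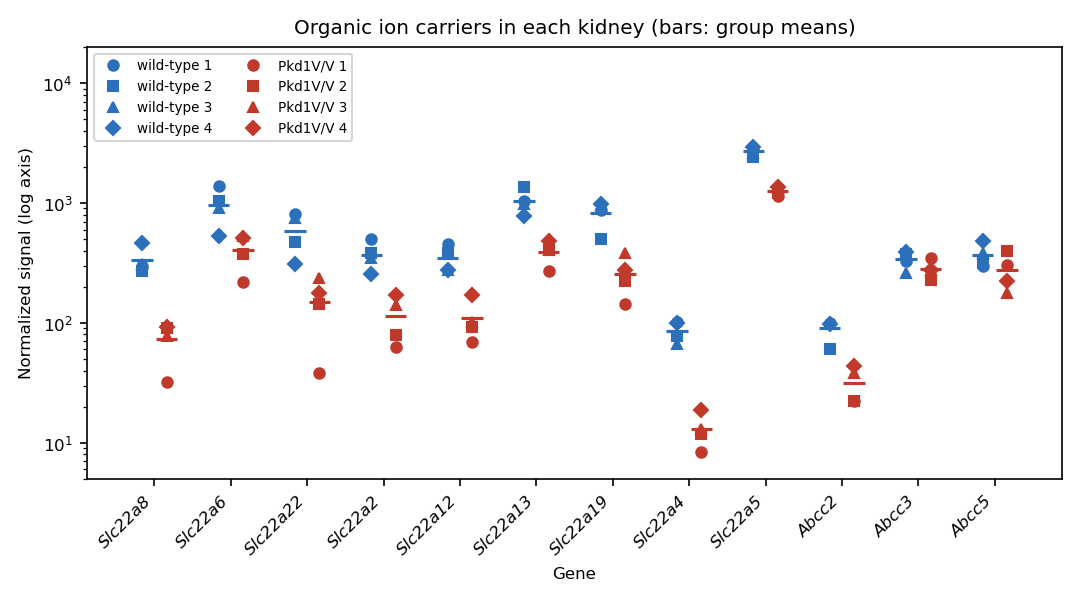
Normalized signal (log axis) of 12 carriers in each kidney, wild-type in blue and *Pkd1*V/V in red, 1 symbol per replicate, with bars at the group means (n = 4). The groups are separate for the 9 Slc22a genes and *Abcc2* and overlap for *Abcc3* and *Abcc5*; the mutant points of *Slc22a4* are below detection.

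The Slc22a genes without an assigned transport direction were all lower where tested. *Slc22a18*, an imprinted gene, gave 1517, 1570.0, 1258 and 1088 in wild-type and 302, 433, 446 and 482 in mutant kidneys. The means of 1358 ± 226 and 416 ± 78.8 (SD, n = 4) were far apart for their spread (log2 fold change -1.68, SE 0.18, adjusted *P* = 0.000282). *Slc22a17*, which encodes a receptor for lipocalin 2, was 198 to 239 in wild-type and 83.9 to 139.6 in mutant kidneys (log2 fold change -0.98, SE 0.15, adjusted *P* = 0.00173). Its dimmer second probe gave -0.19 and did not pass (adjusted *P* = 0.317, over probes). *Slc22a23*, an orphan member, was 287 to 348 and 164 to 199 (log2 fold change -0.71, SE 0.11, adjusted *P* = 0.00188). Counted as a family, 12 of 14 tested Slc22a genes were lower with a median of -1.48. *Slc22a14* was detected on 2 wild-type arrays and was not tested.

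Pairs of carriers were also compared with each other. The difference of log2 signals between 2 genes was compared between the groups for 5 pairs chosen after their values had been seen (exact permutation test, two-sided, n = 4 each, smallest possible *P* = 0.0286). Adjusted over the 5 pairs, the *P* values of the exact test ran from 0.0714 to 0.4, and none is a test independent of the choice of pairs. The ratio of *Slc22a2* to *Slc22a6* changed by -0.43 on the log2 scale (95% interval -0.81 to -0.06, exact *P* = 0.0286). That of *Slc22a8* to *Slc22a6* changed by -0.83 (interval -1.93 to 0.28, exact *P* = 0.0571), but by -0.42 without wild-type replicate 4 and by -0.40 without that kidney and mutant replicate 1. *Abcc2*, itself near background in mutants, changed by -0.90 against *Abcc3* (interval -1.67 to -0.14, exact *P* = 0.0571), and *Slc22a13* against *Slc22a12* by 0.19 (interval -0.28 to 0.66, exact *P* = 0.4). For *Slc22a4* against *Slc22a5* no size is given, since *Slc22a4* has only a bound in mutant kidneys.

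Sequence before the start sites is shown for the 3 uptake carriers with the largest falls among those with a single start site in the table, and for *Abcc2*, the exporter of the brush border in the same cells. RefSeq promoters (GRCm38.p6, 250 bases before to 50 after the start) were matched to 59 of the 70 transporters. Searched on both strands, with no test, were the letters CAAAGTCCA (HNF4) and AGGTCA given once more after 4 bases of any kind (LXR). They were in 0 transporter promoters and in 0.475% and 0.0152% of all promoters. The 100 bases before each start follow in the direction of the gene, with no part marked.
Slc22a8, chr19:8593082-8593181, plus strand: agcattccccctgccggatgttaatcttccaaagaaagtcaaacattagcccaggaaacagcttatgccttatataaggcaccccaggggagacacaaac
Slc22a4, chr11:54028105-54028204, minus strand: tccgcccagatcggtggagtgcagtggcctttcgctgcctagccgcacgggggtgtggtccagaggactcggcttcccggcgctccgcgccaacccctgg
Slc22a19, chr19:7711311-7711410, minus strand: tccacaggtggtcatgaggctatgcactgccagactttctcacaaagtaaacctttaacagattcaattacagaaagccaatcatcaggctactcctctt
Abcc2, chr19:43782208-43782307, plus strand: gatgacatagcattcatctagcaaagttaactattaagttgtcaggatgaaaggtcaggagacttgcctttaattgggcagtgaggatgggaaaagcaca
No binding was measured in these kidneys.

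The Slco carriers (organic anion transporting polypeptides) were less well measured, since 4 of 11 were tested. *Slco2a1* encodes the prostaglandin transporter. Its signals were 230.0, 240.2, 245 and 339 in wild-type and 205, 159, 179 and 172 in mutant kidneys, separate but close apart from wild-type replicate 4 (log2 fold change -0.51, SE 0.15, adjusted *P* = 0.0292). Without that kidney the change was -0.39 (adjusted *P* = 0.0548). *Slco4a1*, a carrier of thyroid hormone and other anions, gave 489.9, 703, 600.0 and 569.6 in wild-type and 474, 488, 419 and 384 in mutant kidneys. The lowest wild-type kidney lay just above the highest mutant (log2 fold change -0.40, SE 0.14, adjusted *P* = 0.0605), and leaving out any of 4 kidneys (wild-type 2 or 3, mutant 3 or 4) ended the call, with adjusted *P* up to 0.149. *Slco2b1* (log2 fold change -0.15, SE 0.35, adjusted *P* = 0.8) and *Slco3a1* (log2 fold change 0.41, SE 0.19, adjusted *P* = 0.153) did not pass, and *Slco2b1* has no settled direction, at 0.06 without wild-type replicate 4 and -0.47 without mutant replicate 1. Mutant replicate 1 was the highest of 8 kidneys for *Slco2b1*, at 619, with the other mutants at 210.2 to 288. The 7 remaining Slco genes were not tested, and *Slco1a1* and *Slco4c1* of the proximal tubule were detected on 0 arrays, with signals up to 13.1 and 10.2.

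Among the exporters, *Abcc2* encodes MRP2, which moves conjugated anions across the brush border into the urine. Its signals were 99.99, 60.8, 101 and 97.3 in wild-type and 22.2, 22.2, 38.4 and 43.3 in mutant kidneys. Each mutant lay below each wild-type kidney, and the means were 89.9 ± 19.5 and 31.6 ± 10.9 (SD, n = 4, log2 fold change -1.16, SE 0.20, adjusted *P* = 0.00263). It was detected on 3 of 4 mutant arrays, so the mutant values are close to background. *Abcc10* (MRP7, an exporter of lipophilic drugs) gave 59.7, 110.2, 137 and 124 in wild-type and 27.6, 78.5, 53.8 and 38.6 in mutant kidneys. These overlapped through mutant replicate 2 and wild-type replicate 1 (log2 fold change -0.93, SE 0.28, adjusted *P* = 0.0361). The call was lost without wild-type replicate 4 and mutant replicate 1 together, with no detection filter and with the methods' t-test.

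*Abcc3*, which encodes the basolateral exporter MRP3, gave 329, 377, 262 and 393 in wild-type and 345, 229.6, 276 and 276 in mutant kidneys, which overlapped (log2 fold change -0.26, SE 0.16, adjusted *P* = 0.29, 95% interval -0.62 to 0.11). *Abcc5*, an exporter of cyclic nucleotides, gave 299.6, 313, 381 and 478 and 304, 397, 179 and 224 (log2 fold change -0.43, SE 0.24, adjusted *P* = 0.229, 95% interval -0.97 to 0.11). It ran from -0.62 to -0.25 when 1 kidney was left out, and passed as lower without mutant replicate 2 and with array weights. The other 6 exporters could not be tested. *Abcb1a* (P-glycoprotein) was detected on 0 arrays, with signals up to 12.5 in mutants and 2.50 in wild-type kidneys. *Abcb1b* was detected on 1 mutant array (replicate 1, 53.7) and 1 wild-type array (replicate 3, 44.9). *Abcc1* (MRP1) and *Abcg2* (BCRP) were detected on 0 arrays, with signals up to 22.2 and 18.8. *Abcc6* was detected on wild-type replicate 4 alone (30.9). The array annotation used here names no probe for *Abcc4* (MRP4).

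Of 9 tested ABC carriers of lipids and sterols, 4 were lower, 1 was higher and 4 did not pass. That is 44.44% lower and 11.11% higher, where 15.8% of all genes tested were lower and 16.8% higher. *Abcg5* encodes one part of the sterol exporter ABCG5/ABCG8. It gave 89.6, 85.6, 105 and 338 in wild-type and 24.1, 22.9, 36.6 and 29.2 in mutant kidneys, separate in every kidney but with wild-type replicate 4 far above the rest (log2 fold change -1.74, SE 0.36, adjusted *P* = 0.0068). Without that kidney the log2 fold change was -1.32 (adjusted *P* = 0.000703). *Abca8a*, of a group of lipid carriers clustered with *Abca9*, gave 30.2, 39.6, 61.8 and 147 in wild-type and 25.8, 2.94, 6.35 and 2.27 in mutant kidneys. It was detected on 1 of 4 mutant arrays, and again wild-type replicate 4 was highest. It passed as lower (adjusted *P* = 0.0136), but the fitted log2 fold change ran from -3.32 to -0.80 with the offset, so no size is given.

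*Abca9* was 44.8 to 68.9 in wild-type and 27.0 to 40.1 in mutant kidneys (log2 fold change -0.64, SE 0.15, adjusted *P* = 0.0112). *Abca4*, known from the retina, was detected on 3 wild-type and 0 mutant arrays, and was at least 1.67-fold higher in wild-type kidneys (adjusted *P* = 0.00217). That bound takes wild-type replicate 1, which was not detected, at its measured 22.1. Its other probes were detected on 0 arrays, so the call rests on 1 dim probe. *Abca3*, a phospholipid carrier, went the other way. It gave 2135, 2092, 1773 and 1869.6 in wild-type and 2335, 2603, 2371 and 2612 in mutant kidneys, every mutant above every wild-type kidney (log2 fold change 0.33, SE 0.11, adjusted *P* = 0.0535). That call was lost without mutant replicate 2 or 4 or wild-type replicate 3 or 4, with adjusted *P* up to 0.141, and with the mean of the gene's probes.

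*Abcg1*, which exports cholesterol to lipoproteins, overlapped between 51.9, 93.1, 75.7 and 169 in wild-type and 90.3, 49.7, 58.0 and 47.8 in mutant kidneys (log2 fold change -0.48, SE 0.29, adjusted *P* = 0.264), and without wild-type replicate 4 the change was -0.21. *Abca2* and *Abca5* had log2 fold changes of 0.08 and 0.09 (adjusted *P* = 0.623 and 0.857), and *Abca5* turned to -0.19 without wild-type replicate 4. *Abca7* did not pass either (adjusted *P* = 0.993), and its 2 tested probes lay on both sides of 0. *Abca1*, the cholesterol exporter of most cells, was detected on 0 arrays.

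ABC proteins of organelles and of the ribosome had small fold changes. Of 4 mitochondrial and lysosomal members, *Abcb6*, a porphyrin carrier, was lower (log2 fold change -0.38, SE 0.14, adjusted *P* = 0.0797), with overlap between 154 to 203 in wild-type and 119 to 174 in mutant kidneys. This call was lost without any of 6 single kidneys, with adjusted *P* up to 0.187. *Abcb8*, *Abcb9* and *Abcb10* had log2 fold changes between -0.21 and -0.11 and did not pass. A dimmer probe of *Abcb8* gave -0.32 and passed as lower (adjusted *P* = 0.0889, over probes), while another dimmer probe gave -0.21 and did not (adjusted *P* = 0.465). *Abcc9*, the sulfonylurea receptor subunit of potassium channels in vascular muscle, did not pass (log2 fold change -0.45, SE 0.20, adjusted *P* = 0.128). Its change was -0.29 without wild-type replicate 4 and -0.18 without that kidney and mutant replicate 1, while it passed as lower without mutant replicate 3, without wild-type replicate 1, with the replicate block and with the mean of its probes.

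*Abcf2*, without a transport domain, gave 881, 947, 742 and 809.9 in wild-type and 1069.7, 1245, 1054 and 1018 in mutant kidneys, every mutant above every wild-type kidney (log2 fold change 0.37, SE 0.12, adjusted *P* = 0.0496). The call was lost without mutant replicate 2 or wild-type replicate 3, with adjusted *P* up to 0.133, and with the mean of the gene's probes. *Abcf1*, which acts in translation initiation, had a similar change that did not pass (log2 fold change 0.37, SE 0.16, adjusted *P* = 0.124). *Abce1*, which recycles ribosomes, and *Abcf3* did not pass either (log2 fold change 0.20 and -0.13).

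The kidneys of a group were not equally affected. Of the 21 lower transporters, mutant replicate 1 was the lowest mutant in 15, and of the 11 lower uptake carriers in 9. Summed over 15 proximal tubule genes, its signal was 13293, while the other mutants were at 19877 to 23180 and wild-type kidneys at 51522 to 58175. Of the 14 tested genes of that list 13 were lower and 0 higher (median log2 fold change -1.59). Summed over 13 macrophage and leukocyte genes, the same kidney was at 19767, the other mutants at 4717 to 8256 and wild-type kidneys at 1792 to 2208, and 10 of 10 tested genes were higher. Over 5 adrenal cortex genes it was at 524.7, against 6.1 to 20.8 in the other mutants and 15.2 to 24.1 in wild-type kidneys, and 0 of 1 tested passed. Collecting duct genes had 6 higher and 0 lower of 8 tested. The log2 fold changes were 2.72 for *Krt18*, 1.49 for *Krt8*, 1.09 for *Scnn1b*, 0.80 for *Hsd11b2*, 0.61 for *Scnn1g* and 0.45 for *Fxyd4*. *Aqp2* and *Aqp3* did not pass (0.11 and 0.17, adjusted *P* = 0.853 and 0.786). The keratin genes *Krt8* and *Krt18* averaged 8955 and 3464 in mutants and 3164 and 515 in wild-type kidneys. Endothelial genes had 0 higher and 6 lower of 8. Genes of the thick ascending limb had 3 lower and 0 higher of 4 tested (median log2 fold change -1.16), and those of the distal convoluted tubule 2 lower and 0 higher of 3 (median -1.61). The part of these cell types in the transporter values was not tested.

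**Figure D3:**
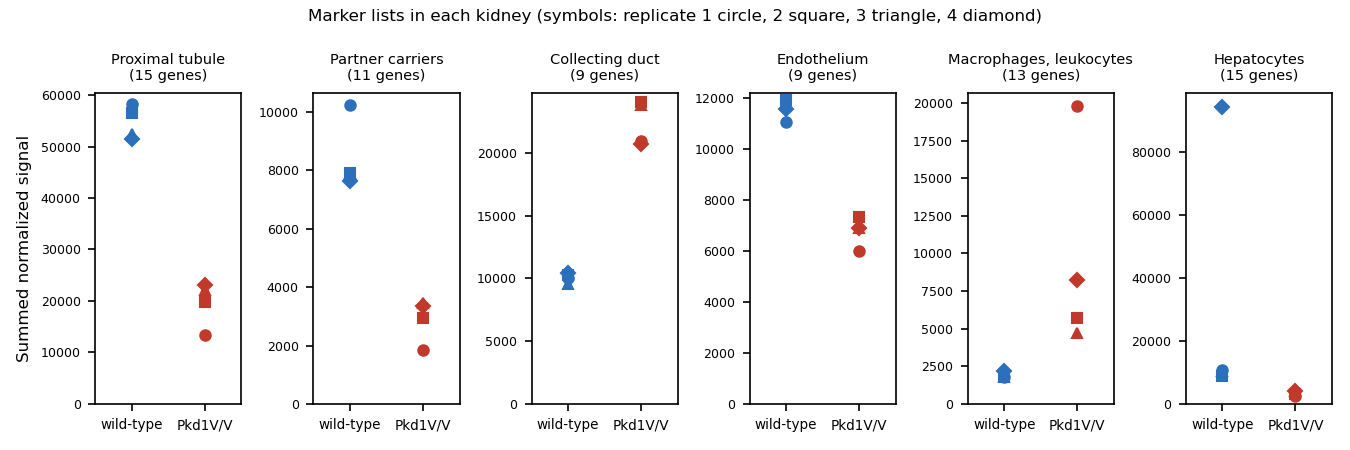
Summed normalized signal of 6 gene lists in each kidney (wild-type blue, *Pkd1*V/V red), 1 panel per list with its own axis from 0. Proximal tubule, partner carrier and endothelial sums are lower in each mutant, and collecting duct and macrophage sums higher. Partner carriers are other carriers of organic ions, urate or bile acids. The collecting duct sum includes the keratin genes *Krt8* and *Krt18*. Wild-type replicate 4 reaches 94066 for hepatocyte genes.

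Wild-type replicate 4 had far more signal of hepatocyte genes than the other kidneys. Summed over 15 hepatocyte genes its signal was 94066, against 8882 to 10817 in the other wild-type kidneys and 2584 to 4181 in the mutants. *Ttr*, 1 of the 15, was at 7653 to 9892 in those other wild-type kidneys and at 1616 to 3601 in the mutants. The fetuin gene *Ahsg* was at 14245 in wild-type replicate 4 and at most 5.43 elsewhere. *Alb*, the defining hepatocyte gene, was at 5.99 in the same kidney and at 0 in the others, and *Fgb* was at 0 in all 8. Several transporters of the liver had the same pattern. *Abcb4*, which moves phosphatidylcholine into bile, was at 240.4 in that kidney and at most 3.62 in the other wild-type kidneys and 8.72 in the mutants. *Abcb11*, the bile salt exporter, was at 89.3 against at most 2.65 in the others, and *Slco1b2*, a hepatocyte uptake carrier, at 48.6 against 0. *Abcg8*, the partner of *Abcg5*, was at 143 against at most 21.6, and *Abca6* at 35.0 against at most 5.60 in any other kidney. These 5 genes were detected on too few arrays to be tested.

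Leaving out wild-type replicate 4 left 20 transporters lower and 1 higher of the 40. Leaving out both that kidney and mutant replicate 1 left 19 lower and 0 higher, and 11 of 15 uptake carriers lower in both cases. Over all 9833 genes, 1509 were lower and 1470 higher without wild-type replicate 4. Without both kidneys 1361 were lower and 1389 higher.

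**Figure D4:**
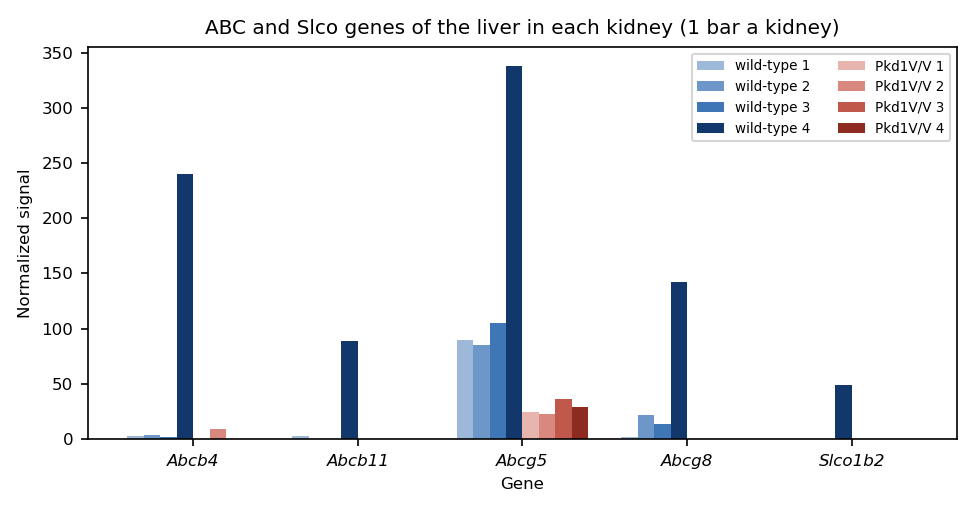
Normalized signal of 5 transporters of the liver in each kidney, 1 bar per kidney, blue for wild-type and red for *Pkd1*V/V. Wild-type replicate 4 holds the highest bar for each gene, 240.4 for *Abcb4* and 338 for *Abcg5*; *Abcg5* is also above background in the other kidneys.

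Genes that serve the same transport were taken from lists made with earlier results of these data known. Of 11 partner carriers 7 were tested and 7 were lower, with a median of -1.62. *Slc47a1* encodes MATE1, the brush border exit of cations that OCT2 brings in, and was 4682 to 6234 in wild-type and 1209 to 2534 in mutant kidneys (log2 fold change -1.39, SE 0.22, adjusted *P* = 0.00201). *Slc13a2* and *Slc13a3* encode the sodium-dicarboxylate carriers that supply the exchange partner of OAT1 and OAT3 (log2 fold change -2.09, SE 0.25, adjusted *P* = 0.000453 and log2 fold change -2.07, SE 0.33, adjusted *P* = 0.0019). *Slc17a3*, a urate and anion carrier, fell by 1.62 on the log2 scale. The urate carrier *Slc2a9* was at 28.7 to 93.2 in wild-type kidneys and at 0 to 19.9 in mutants, near or under the lowest signals detected on mutant arrays (19.01 to 22.95), so no size is given. *Slc51a* and *Slc51b*, which form the basolateral bile acid and steroid carrier, fell by 1.19 and 1.69.

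Of 4 genes of scaffolds and a scaffold partner, *Pdzk1*, which anchors URAT1, OCTN2 and other brush border carriers, fell (log2 fold change -1.31, SE 0.18, adjusted *P* = 0.000923). The scaffold genes *Slc9a3r1* and *Slc9a3r2* (NHERF proteins) also fell, by 0.37 and 0.60. *Pdzk1ip1*, which encodes a protein that interacts with PDZK1 and is not itself a scaffold, rose (log2 fold change 0.43, SE 0.12, adjusted *P* = 0.0258). Of 12 listed transcription factors 6 were tested, of which 4 were lower and 0 higher. *Hnf4a*, which drives hepatic and proximal tubule genes, was 1651 to 1879 in wild-type and 697 to 1033 in mutant kidneys (log2 fold change -1.13, SE 0.14, adjusted *P* = 0.000465). The nuclear receptor genes *Nr1h4* (FXR) and *Nr1h3* (LXR alpha) fell by 1.13 and 0.74. *Nr1i2* (PXR) was at 40.2 to 71.6 in wild-type kidneys and at 7.58 to 18.9 in mutants, under the lowest detected signals, so no size is given. *Rxra* (-0.33, adjusted *P* = 0.342) and *Nfe2l2* (0.03, adjusted *P* = 0.978) did not pass. Of 5 tested ABC genes that the symbol rule leaves out, the peroxisomal carrier gene *Abcd3* and *Abcd4* of the lysosome fell by 0.67 and 0.92. *Cftr* (-0.57, adjusted *P* = 0.106), *Tap1* (1.15, adjusted *P* = 0.22) and *Tap2* (0.58, adjusted *P* = 0.335) did not pass.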

How the data were processed

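Total RNA of 4 *Pkd1*V/V and 4 wild-type kidneys (P10) was extracted by the authors with a column kit from the pellet of a homogenate in PBS, the supernatant being discarded, and hybridized at a core facility. The authors deposited background-subtracted probe intensities without normalization between arrays, each with a detection p-value. They also deposited a quantile-normalized table on the linear signal scale, which served as an alternative. The tool that made these tables is not given in the sources used here.

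Intensities were quantile-normalized, floored at 0 and transformed as log2(signal + 16). Probes with a detection p-value under 0.05 on at least 3 arrays were kept (14221 of 25697), and each gene took its brightest probe, which gave 9833 genes. The annotation names 1 gene for 23978 probes and none for 1719. Current symbols were looked up through gene identifiers and found for 23962 probes, whether or not they differed. Transporters kept the symbol of the annotation. Groups were compared with limma 3.58.1 (R 4.3.3, lmFit and eBayes), with Benjamini-Hochberg adjustment over all genes and a threshold of 0.1, the false discovery rate that the study names beside SAM. SAM was run as an alternative. The code was tested on simulated data. On each array 51.8% to 54.3% of probes were detected, and the number of arrays limits the precision. The study calls the mice independent animals, and kidneys with the same replicate number were not found to be paired. The code of mutant replicate 4 in the labels matches the deposited columns but differs from that in a sample list of the study, and the label was used.

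Transporters, roles, related gene lists and alternatives were chosen with earlier results of these data known. Sample values are given for up to 10 called transporters with the largest rise or fall, and for 21 transporters named by role. Other transporters are given by range or count, with single values for small counts. Some named genes and 1 promoter motif are not reported here.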

Additional observations from a re-analysis of the deposited data

Results flagged for a closer look

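In each group of 4 kidneys, the gap between the highest or lowest kidney and its neighbour was set against the whole range of the group (Dixon's test at 95%). Of 80 groups checked over the 40 tested transporters 4 passed, and chance gives about 5 in 100. *Abcc2* in wild-type replicate 2 was the lowest of its group, at 60.8 against 97.3 to 101 (ratio 0.9164). *Abcg5* in wild-type replicate 4 was the highest, at 338 against 85.6 to 105 (ratio 0.8572), and *Slco2a1* in the same kidney was the highest, at 339 against 230.02 to 245 (ratio 0.8399). *Slc22a8* in *Pkd1*V/V replicate 1 was the lowest, at 31.9 against 78.3 to 91.5 (ratio 0.8376).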

How the results depend on the processing

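The 21 lower transporters ran from 19 to 22 when 1 kidney was left out, and the 11 lower uptake carriers from 10 to 11. Over all 9833 genes, 1266 to 1509 were then lower and 1305 to 1528 higher. Higher transporters, 2 of 40, numbered 1 with the mean of a gene's probes (*Abcf1*, with *Abca3* and *Abcf2* both lost), 1 at a threshold of 0.05 (*Abcf2*), 0 when wild-type replicate 4 and the mutant replicate 1 were both left out, and 0 to 4 when 1 kidney was left out (0 without mutant replicate 2 or wild-type replicate 3, 1 without mutant or wild-type replicate 4, and 4 without wild-type replicate 2). Higher uptake carriers ran from 0 to 1, the 1 being *Slco3a1* without wild-type replicate 2. Higher exporters numbered 1 with SAM, the undetected *Abcb1a*. Lower exporters numbered 1 among genes detected on all 8 arrays, 1 with the methods' t-test, 1 when both of those kidneys were left out, and 2 to 3 when 1 kidney was left out. Other offsets, cyclic loess, median scaling and the authors' normalized table each kept the 23 calls, and SAM kept 22, without *Abcg5*. Over 19 transporters followed through the alternatives, 397 values stayed on the same side of the threshold, 18 lost the call (*Abca3*, *Abcf2*, *Slco4a1* and *Abcg5* under SAM) and 0 reversed. The 19 include *Abcc3* and *Abcg1*, which were not called. Among called transporters outside the 19, *Abcb6* kept its call in 11 of 22 alternatives and *Abcc10* in 19 of 22. *Abca4*, *Abca9*, *Slc22a17* and *Slc22a23* kept theirs in all alternatives that gave a value. Of the called transporters, *Slc22a4*, *Abca4*, *Abca8a* and *Abcc2* gave no value among genes detected on all 8 arrays. Arrays left out kept the normalization of all 8.

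The replicate numbers did not pair the kidneys, since deviations of same-numbered kidneys correlated at -0.22, 0.31, 0.18 and -0.25. With the replicate number as a block, 21 transporters were lower and 2 higher, with *Abca3* (adjusted *P* = 0.104) and *Abcb6* lost and *Abcc9* and *Abcf1* gained, and 1391 genes were lower and 1437 higher in all, against 1549 and 1655. Transporters at or near background on these arrays, among them 21 transporters detected on 0 arrays, are not shown to be absent.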

Other observations

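*Xist*, transcribed from the inactive X chromosome, was at 171 in *Pkd1*V/V replicate 3 and 423 in wild-type replicate 2, and at 16.2 to 23.0 in the other kidneys. The Y-linked gene *Eif2s3y* was at 0 in those same kidneys and at 1032 to 1313 in the others, so 1 kidney of each group had this pattern. The labels give no sex.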
